A study of Mus musculus with 4 samples.

Results

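The 10 genes described here encode subunits of the transcription factor AP-1 and other immediate early transcription factors. They are *Fos*, *Fosb*, *Fosl1* and *Fosl2* of the Fos family, *Jun*, *Junb* and *Jund* of the Jun family, *Atf3*, *Egr1* and *Myc*. They were taken by gene name from a list of 10, all 10 had counts in every section, and they are 10 of the 32285 features that carry no mark of a deprecated probe. The sections are formalin-fixed, paraffin-embedded pancreas of C57Bl/6 mice with *Pdx1-Cre*, in 2 groups of 2 sections. The labels give the groups as *Pdx1-Cre* wild type (WT) and *Ehmt2* knockout (KO). They are named here Ehmt2+/+ and Ehmt2 fl/fl, as in the paper. Each section is taken here as 1 mouse, which the paper does not state. *Pdx1-Cre* acts in the pancreatic epithelium, so that macrophages, fibroblasts and vessels of an Ehmt2 fl/fl pancreas are not targeted for deletion of *Ehmt2*, the gene of a histone H3 lysine 9 methyltransferase. All mice were 4 weeks old, were fasted for 12 h, received caerulein, a cholecystokinin analogue that causes acute pancreatitis, in 8 hourly intraperitoneal injections of 50 µg/kg, and were killed 18 h after the first dose. No saline-treated section was analysed, so the values are levels in pancreatitis and not responses to caerulein.

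AP-1 is a dimer of basic leucine zipper proteins. Jun proteins can pair with each other or with a Fos protein, whereas Fos proteins need a Jun partner, and *Atf3* and other zipper genes give further partners. Most of these genes are induced within minutes by MAP kinase signalling and serum response factor, without new protein synthesis, and their messengers decay fast, while *Jund* is known as the constitutively expressed member. In the pancreas, caerulein is known to induce *Fos*, *Jun*, *Egr1*, *Atf3* and *Myc* in acinar cells early in pancreatitis.

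Promoter sequence is shown for 4 of the genes to make their inputs concrete. They are *Fos* and *Jun*, the classic immediate early genes, with *Fosl2* and *Atf3*, which hold other matches. Each run is the 200 bases 5′ of the RefSeq transcription start on GRCm38.p6, the build that mm10 names, read along the gene's strand. Capitals mark matches to the searched motifs.
Fos, chr12:85473690-85473889, plus strand: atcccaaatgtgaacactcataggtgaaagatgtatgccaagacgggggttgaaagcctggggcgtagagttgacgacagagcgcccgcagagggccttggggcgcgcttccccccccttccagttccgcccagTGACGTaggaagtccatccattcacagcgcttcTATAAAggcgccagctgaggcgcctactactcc
Fosl2, chr5:32136272-32136471, plus strand: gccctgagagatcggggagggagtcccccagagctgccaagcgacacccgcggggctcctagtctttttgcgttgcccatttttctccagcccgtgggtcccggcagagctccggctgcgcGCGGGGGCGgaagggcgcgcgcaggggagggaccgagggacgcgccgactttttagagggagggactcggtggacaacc
Jun, chr4:95052223-95052422, minus strand: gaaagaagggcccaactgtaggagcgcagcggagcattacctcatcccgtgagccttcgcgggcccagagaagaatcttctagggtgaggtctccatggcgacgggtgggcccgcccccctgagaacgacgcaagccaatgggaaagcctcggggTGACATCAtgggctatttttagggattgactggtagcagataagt
Atf3, chr1:191183334-191183533, minus strand: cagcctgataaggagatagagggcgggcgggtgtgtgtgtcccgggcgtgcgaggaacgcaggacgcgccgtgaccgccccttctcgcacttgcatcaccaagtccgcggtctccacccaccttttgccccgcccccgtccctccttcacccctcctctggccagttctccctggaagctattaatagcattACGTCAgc

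The motifs were searched on both strands of the 250 bases before the start, and the same was done for all 32851 windows of the RefSeq table. These windows held 7 of the 10 genes, all but *Fosl1*, *Egr1* and *Myc*. Sequence farther upstream was not searched, so a motif absent here can still lie there. The core of a cyclic AMP response element, TGACGT, was found in *Fos* and *Atf3* and in 6.47% of all windows. TGACNTCA, the 8-base form bound by Jun and ATF dimers, was found in *Jun* and in 7.49% of all windows. The EGR motif GCGNGGGCG was found in *Fosb* and *Fosl2* and in 4.70% of all windows. TATAAA was found in *Fos* and in 12.4% of all windows. The AP-1 motif TGANTCA and the CArG box of serum response factor were in none of the 7 windows and in 6.75% and 1.47% of all windows. TGACGT overlaps TGACNTCA where N is G. TGACGTCA and the E-box CACGTG, bound by MYC, were also in none of the 7 windows and in 1.55% and 6.02% of all windows. The motifs were chosen with the sequences in view. TGACNTCA, TGACGT and TATAAA were added, and *Fosl2* was shown in place of *Jund*, after a first search found no match in *Fos*, *Jun*, *Jund* or *Atf3*. A match is a description of letters only.

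Spots with at least 500 UMIs, unique molecular identifiers that each stand for 1 captured probe molecule, were analysed, 6144 to 7871 per section. Ehmt2+/+ replicate 1 stood apart, with 43784930 UMIs and a median of 6327.5 per spot against 6643747 to 7938386 UMIs and medians of 874 to 1113 in the other 3 sections. Acinar digestive enzyme genes held 62.0% and 52.3% of the UMIs in the Ehmt2+/+ sections and 21.0% and 20.3% in the Ehmt2 fl/fl sections. UMIs per 1000000 UMIs of the section (CPM) of other genes are therefore higher in Ehmt2 fl/fl whenever enzyme messengers are fewer, and fewer acinar cells and less enzyme RNA per cell cannot be told apart. A further gradient was in 1135 olfactory receptor genes, whose median was 0.251, 4.97, 8.13 and 12.6 CPM in Ehmt2+/+ replicates 1 and 2 and Ehmt2 fl/fl replicates 1 and 2. This order of the sections is used below wherever 4 values follow each other. *Ehmt2* itself had 19.8, 3.95, 10.1 and 12.1 CPM, overlapping between genotypes. That was 78.6, 0.795, 1.24 and 0.96 times the olfactory receptor median, so only Ehmt2+/+ replicate 1 lay clear of it. The place of the *Ehmt2* probe relative to the deleted part is not given in the sources used here, so *Ehmt2* does not check the labels. The Y-linked genes *Ddx3y*, *Eif2s3y*, *Kdm5d* and *Uty* had 0 or 1 UMI in each Ehmt2+/+ section and 33 to 139 UMIs in each Ehmt2 fl/fl section, and *Xist* had 0 UMIs in all 4 sections. Sex and genotype therefore cannot be told apart in any comparison of the genotypes below.

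All 10 genes had more CPM in both Ehmt2 fl/fl sections than in both Ehmt2+/+ sections, and so did 91.8% of the 20053 genes tested. The 10 together had 391 and 522 CPM in Ehmt2+/+ and 1428 and 1318 CPM in Ehmt2 fl/fl. In no case did edgeR's quasi-likelihood test with TMM scaling call the difference, and which of the 10 lay above or below the median gene differed among them, with *Fos* highest and *Jund* lowest. The genotype comparison asks whether loss of *Ehmt2* in the epithelium goes with another state of these stress-responsive genes.

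*Fos*, whose product is the classic short-lived partner of Jun, had 4.02, 10.96, 63.4 and 36.8 CPM, from 176, 86, 421 and 292 UMIs. Its Ehmt2 fl/fl mean was 6.69 times its Ehmt2+/+ mean, the highest ratio of the 10. *Fosb*, which also gives a shorter and more stable splice form, had 1.21, 12.2, 27.4 and 26.1 CPM. For this gene the 2 Ehmt2+/+ sections lay farther apart in ratio than Ehmt2+/+ replicate 2 lay from either Ehmt2 fl/fl section. *Fosl1*, the Fra-1 gene, had 1.60, 7.65, 25.0 and 24.9 CPM, and the same held for its sections. *Fosl2*, the Fra-2 gene, had 7.51, 15.6, 67.4 and 52.8 CPM.

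The Fos genes had few UMIs, and their distance from the olfactory receptor genes varied by section. In Ehmt2+/+ replicate 2 *Fosl1* was 1.54 times the olfactory receptor median and 13.2% of those genes had at least its level. *Fosb* was 4.82, 2.46, 3.37 and 2.07 times that median, and *Fos* 16.0, 2.21, 7.80 and 2.92 times. Both *Fosb* and *Fosl1* had their lowest CPM in Ehmt2+/+ replicate 1, as the olfactory receptor genes did, and the part of this background in their values was not tested.

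*Jun*, the most strongly transactivating Jun subunit, had 107, 178, 534 and 463 CPM from 4698, 1398, 3551 and 3674 UMIs. *Junb*, which can replace *Jun* or oppose it, had 58.5, 83.2, 236 and 215 CPM. *Jund* had 116, 105, 190 and 186 CPM. The ratio of the Ehmt2 fl/fl mean to the Ehmt2+/+ mean was 3.49 for *Jun*, 3.19 for *Junb* and 1.70 for *Jund*, the lowest of the 10. The Jun genes lay far above the olfactory receptor genes, and the value nearest to their median was *Jund* in Ehmt2 fl/fl replicate 2, at 14.8 times it.

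*Atf3*, a stress-induced zipper factor that often represses, had 13.2, 20.8, 67.9 and 75.2 CPM. *Egr1*, a zinc finger factor induced through serum response factor, had 64.3, 64.7, 172 and 188 CPM, with the 2 Ehmt2+/+ sections nearly equal. *Myc*, a growth regulator that pairs with *Max*, had 17.5, 23.6, 43.3 and 50.6 CPM. The Ehmt2 fl/fl to Ehmt2+/+ ratios of the means were 4.21, 2.79 and 2.29.

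**Figure D1:**
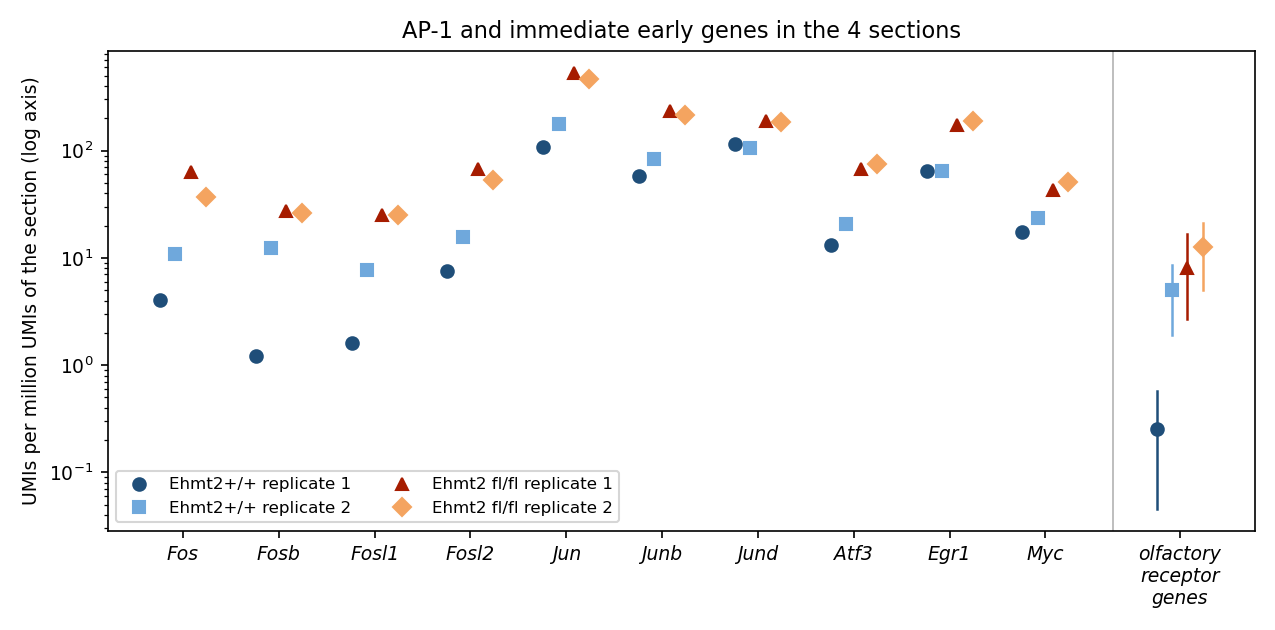
CPM of each of the 10 genes in the 4 sections on a log axis, with the median and the 5th to 95th percentile range (lines) of the 1135 olfactory receptor genes at the right. Both Ehmt2 fl/fl sections lie above both Ehmt2+/+ sections for every gene, and the olfactory receptor genes rise from 0.251 CPM in Ehmt2+/+ replicate 1 to 12.6 CPM in Ehmt2 fl/fl replicate 2.

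With the enzyme UMIs left out of the total, 9 of the 10 genes kept both Ehmt2 fl/fl sections above both Ehmt2+/+ sections, against 49.6% of all genes. *Jund* was the exception, with 304.4, 220, 241 and 233 per 1000000 non-enzyme UMIs. On this scale *Jun* had 282, 374, 677 and 581, *Fos* had 10.6, 23.0, 80.3 and 46.2, and *Egr1* had 169, 136, 218 and 236. With the olfactory receptor median subtracted from CPM all 10 kept the order, against 59.3% of all genes. With TMM-scaled CPM, only *Fos* and *Fosl1* of the 10 did, against 20.4% of all genes. *Fos* then had 14.0, 11.5, 37.1 and 17.3, and *Fosl1* 5.55, 7.99, 14.6 and 11.7. With 2 sections against 2, the two-sided exact permutation test cannot give a p below 0.333, which is the p of each of these orders.

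The edgeR test on the summed counts called 22 of 20053 genes, 0.110%, and 0 of the 10 genes. At an unadjusted p under 0.05 there were 0 of the 10, against 5.28% of all genes. DESeq2 gave an adjusted p for only 1781 genes, of which it called 26.4%. Of the 10 it gave one for *Jun*, *Junb*, *Jund* and *Egr1* and called none of these 4, and it left out the other 6. TMM factors ran from 0.288 in Ehmt2+/+ replicate 1 to 2.13 in Ehmt2 fl/fl replicate 2. The median log2 fold change of all tested genes, Ehmt2 fl/fl over Ehmt2+/+, was 0.25 with them and 1.69 with library sizes alone. The values that follow in this paragraph are therefore relative to the median gene. Relative to it, *Fos* was at 0.85, *Fosl1* at 0.72, *Fosb* at 0.50 and *Fosl2* at 0.35. *Atf3* was at -0.09, *Jun* at -0.32 and *Junb* at -0.52. *Egr1* was at -0.87, *Myc* at -1.04 and *Jund* at -1.61. The SE of these edgeR estimates ran from 0.69 for *Fosb* to 1.10 for *Jun*, and the adjusted p from 0.863 to 0.976. Every edgeR SE given here was back-calculated, as the absolute log2 fold change divided by the square root of the test's F statistic. It was taken before the median gene was subtracted. *Ehmt2*, with 68.6, 4.13, 5.91 and 5.68 TMM-scaled CPM, was at -2.90 (SE 0.78, edgeR adjusted p = 0.191).

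The places of the 10 genes around the median gene were compared across settings. Over the edgeR estimate and 15 alternative settings, *Fos*, *Fosb* and *Fosl1* were above the median gene in 16 of 16, and *Jund* and *Myc* were above it in 0 of 16. *Fosl2* was above it in 13, *Atf3* in 6, *Jun* in 4, *Junb* in 1 and *Egr1* in 1 of the 16. The settings share sections and are not independent of each other. The share of all tested genes that stayed on 1 side in 16 of 16 is not given here, so these counts have no background. Without Ehmt2+/+ replicate 1 *Fosb* was at only 0.13 and *Myc* at -0.012 relative to the median gene. Olfactory receptor genes also lay above the median gene, with a median log2 fold change of 0.81 against 0.25 in the edgeR estimate. On that scale *Fosb* was at 0.75, *Fosl1* at 0.96 and *Fos* at 1.10. Without Ehmt2+/+ replicate 2 the olfactory receptor median was 2.45, against 1.60, 1.09 and 0.80 for these genes. Without Ehmt2+/+ replicate 1 it was 0.078, against 0.17, 0.74 and 1.26. 4 genes, *Atf3*, *Jun*, *Junb* and *Egr1*, were called higher in Ehmt2 fl/fl with library sizes alone, a setting in which 1.93% of all genes were called higher. Without Ehmt2+/+ replicate 1 *Fos* was the only member of the 10 called, with a log2 fold change of 1.26 and an edgeR adjusted p of 0.0401, where 1.08% of all genes were called higher. Without Ehmt2+/+ replicate 2, 46.5% of all genes were called higher, *Fos*, *Fosb* and *Fosl1* among them, and 36.3% lower, *Jund*, *Egr1* and *Myc* among them.

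**Figure D2:**
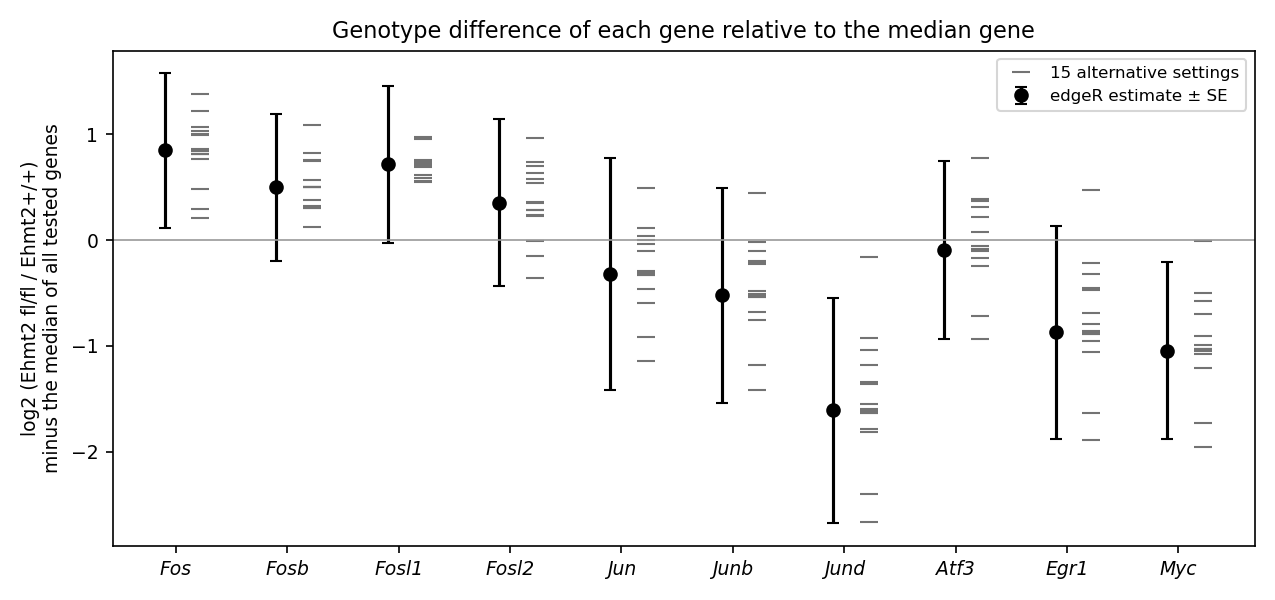
Log2 fold change of Ehmt2 fl/fl over Ehmt2+/+ minus the median over all tested genes, as the edgeR estimate with its SE (black) and under the 15 alternative settings (grey). *Fos*, *Fosb* and *Fosl1* stay above 0 and *Jund* and *Myc* below 0, while the error bars of the 10 genes are 0.69 to 1.10 long on each side. The olfactory receptor genes, not drawn, also lie above 0, with a median log2 fold change of 0.81 against 0.25 over all genes in the edgeR estimate.

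Ratios between the genes do not depend on the total of a section. *Jun* to *Jund* was 0.928 and 1.70 in the Ehmt2+/+ sections and 2.81 and 2.49 in the Ehmt2 fl/fl sections, a mean log2 difference of 1.08, with SDs of 0.62 and 0.12 (n = 2 and 2, exact permutation p = 0.333, the smallest possible). *Junb* to *Jund* was 0.506, 0.792, 1.24 and 1.16, and *Egr1* to *Jund* was 0.556, 0.617, 0.903 and 1.01. *Fos* to *Jund* was 0.0347, 0.104, 0.333 and 0.198, and *Fos* to *Jun* was 0.0375, 0.0615, 0.119 and 0.0795. The ratio to *Jund* was higher in both Ehmt2 fl/fl sections for 9 of the 9 other genes, against 41.5% of all tested genes. The choice of *Jund* as the denominator was made after its values were seen. By CPM it had the lowest Ehmt2 fl/fl to Ehmt2+/+ ratio of the listed genes. The count of 9 of 9 was thus largely set by that choice. *Jund* was not picked as the lowest of all tested genes, so the 41.5% is no matching background and nothing is concluded from it. *Myc* to *Jund* was nearly tied, at 0.225 in Ehmt2+/+ replicate 2 and 0.228 in Ehmt2 fl/fl replicate 1. Counts of different genes come from different probes, so that a ratio shows unequal change between sections and not which gene is more abundant.

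As shares of the 10 genes' summed UMIs, *Jund* had 29.6% and 20.1% in Ehmt2+/+ and 13.3% and 14.1% in Ehmt2 fl/fl. *Jun* had 27.5% and 34.1% against 37.4% and 35.1%. *Fosl2* had 1.92% and 2.98% against 4.72% and 4.005%, and *Fos* 1.03% and 2.10% against 4.44% and 2.79%. *Egr1*, at 12.0% to 16.4%, overlapped between genotypes. Ehmt2+/+ replicate 1 had the lowest share of *Jun* and the highest shares of *Jund* and *Egr1* of the 4 sections.

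**Figure D3:**
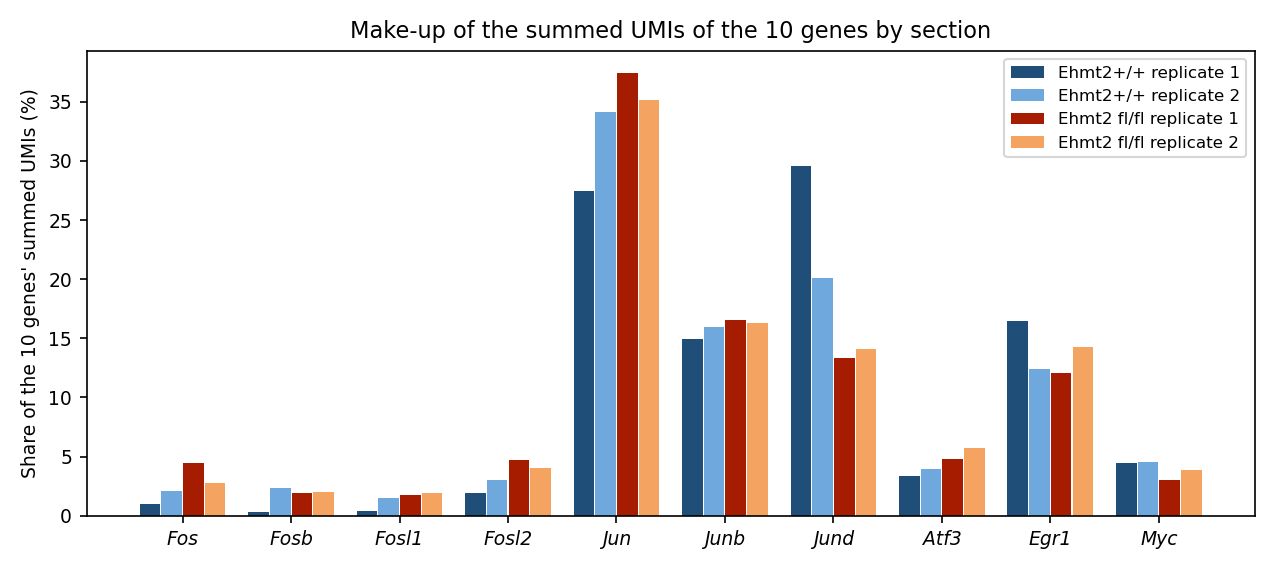
Share of the summed UMIs of the 10 genes held by each gene in each section, in percent, from 4095 to 17110 UMIs per section. *Jund* takes 29.6% and 20.1% in Ehmt2+/+ and 13.3% and 14.1% in Ehmt2 fl/fl, and *Jun* is lowest in Ehmt2+/+ replicate 1.

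The genes were also described by the share of spots with at least 1 UMI. Before thinning, *Jun* was in 47.9%, 15.7%, 40.9% and 40.8% of spots, whose median depth was 6327.5, 874, 981 and 1113 UMIs. After each spot was thinned at random to 500 UMIs, the shares were 5.84%, 8.88%, 23.5% and 20.5%. *Jund* was in 6.17%, 5.02%, 9.04% and 8.56%, *Egr1* in 2.93%, 3.39%, 8.07% and 8.76%, and *Fos* in 0.244%, 0.623%, 3.62% and 1.996% of thinned spots. For *Fos* the 95% Clopper-Pearson intervals, which cover counting error only, reached up to 0.822% in the Ehmt2+/+ sections and down to 1.67% in the Ehmt2 fl/fl sections. All 10 shares were higher in both Ehmt2 fl/fl sections, as were those of 88.5% of all tested genes. When each spot was thinned to 500 non-enzyme UMIs the count was 8 of 10, without *Jund* and *Myc*, against 49.4% of all genes.

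Counts of these genes were not limited to the analysed spots. Spots under 500 UMIs, which hold the area off the tissue and other shallow spots, had 126, 261, 595 and 424 CPM of *Jun* from 66, 267, 294 and 290 UMIs. For *Egr1* they had 91.7, 79.0, 178 and 126 CPM. These levels per UMI are of the same order as those of the analysed spots of the same section, and the part of free RNA in any spot's counts was not tested. The low point between the modes of depth was 149, 132 and 105 UMIs in Ehmt2+/+ replicate 2 and Ehmt2 fl/fl replicates 1 and 2. There 10282, 7657 and 8435 spots lay above it, more than the 7871, 6483 and 6462 analysed. In these sections the spots under 500 UMIs are thus not off-tissue area alone, and their levels do not show counts off the tissue. In Ehmt2+/+ replicate 1 the low point was 472 UMIs, with 6177 spots above it against 6144 analysed. Nearly all its spots under 500 UMIs thus lay below the low point, and whether they lay off the tissue was not tested.

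The genes were next compared between the 10% of spots richest in the markers of a cell type and the other spots of the same section. A spot can hold several cells, so the 8 classes are spots rich in acinar, duct and keratin, islet, fibroblast, smooth muscle, endothelial, macrophage or fat markers and not cells of those types. In Ehmt2+/+ replicate 1 the rich spots were shallower than the others in 6 of the 8 classes, all but acinar and smooth muscle, with medians of 2142 UMIs for duct and keratin and 2252 for fibroblast markers against 6711.5 and 6777.5. In Ehmt2+/+ replicate 2 and Ehmt2 fl/fl replicates 1 and 2 the rich spots were shallower in 6, 5 and 6 classes. For smooth muscle markers every spot with a UMI was taken in the Ehmt2+/+ sections, 519 and 412 spots. In Ehmt2+/+ replicate 2 few rich spots had at least 2 marker UMIs, 12.7% for fat, 14.4% for macrophage and 21.0% for endothelial markers. In Ehmt2 fl/fl the shares were 56.0% and 65.5%, 100% and 100%, and 93.1% and 76.1%. A rich spot thus does not mean the same in each section, which also bears on the test by genotype below.

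In no class did edgeR, with the section as a block, call any of the 10 genes. All genes called made up 0.264% of those tested for acinar, 0.0400% for duct and keratin, 0.743% for islet, 0.754% for fibroblast, 0.608% for smooth muscle, 0.0649% for endothelial, 1.22% for macrophage and 1.46% for fat markers. At an unadjusted p under 0.05 there were 5 of the 10 genes for fat markers, against 12.9% of all genes, and 3 for fibroblast markers, against 9.80%. There were 2 each for smooth muscle and macrophage markers, against 9.83% and 12.2%, and 1 each for acinar and endothelial markers, against 10.6% and 7.60%. There were 0 for duct and keratin and for islet markers, against 3.63% and 5.60%. DESeq2 called *Jund* for acinar and *Egr1* for fat markers, where it called 34.0% and 21.2% of the genes to which it gave an adjusted p, and no other of the 10. It gave no adjusted p to 4 of the 10 for acinar, fibroblast and macrophage, 2 for endothelial and 6 for fat markers.

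In spots rich in acinar markers *Jund* had the highest estimate of the 10, a log2 fold change of 0.51 (SE 0.24, edgeR adjusted p = 0.435), and *Fosb* the lowest, -0.49 (SE 0.27). The CPM of *Jund* in rich and other spots were 92.2 and 119, 95.3 and 107, 164 and 194, and 224 and 179, so that it was higher in rich spots only in Ehmt2 fl/fl replicate 2. With enzyme UMIs left out of both totals, the ratio of rich to other spots was 0.901, 1.18, 1.13 and 1.70 for *Jund* and 0.529, 0.527, 0.739 and 0.903 for *Fos*. Without Ehmt2+/+ replicate 1, 5 of the 10 were called higher in acinar-rich spots, *Jund* (0.82), *Atf3* (0.60), *Myc* (0.51), *Junb* (0.49) and *Egr1* (0.45), against 8.88% of all genes called higher. With library sizes alone 7 of the 10 were called lower there, with values from -0.35 to -1.23, against 71.7% of all genes, so the direction in acinar-rich spots turns with the scaling.

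The lowest adjusted p of all 80 estimates was in spots rich in fat markers. There *Egr1* was at -0.47 (SE 0.15, edgeR adjusted p = 0.0619) and *Jun* at -0.41 (SE 0.13, edgeR adjusted p = 0.0787). *Jun* had 138, 170, 440 and 416 CPM in rich spots and 105, 179, 543 and 467 CPM in the others, lower in 3 of 4 sections, and *Egr1* was lower there in 2 of 4. The median over the 10 genes was -0.33, against -0.11 over all tested genes.

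In spots rich in fibroblast markers *Fosl1* was at 0.23, *Fosb* at 0.21 and *Fos* at 0.03, while *Fosl2* was at -0.26 and the 6 other genes were below 0, with *Myc* at -0.63, *Atf3* at -0.54 and *Jund* at -0.49. The SEs were 0.21 to 0.28, and the lowest adjusted p was 0.367. The estimates are relative to TMM scaling, so that a gene with a negative estimate can have more CPM in the rich spots. *Jund* did in 3 of 4 sections for fibroblast markers, *Atf3* in 2 and *Myc* in 1. In spots rich in macrophage markers *Fos* was at 0.17 (SE 0.25) and had more CPM than in the other spots in 4 of 4 sections, with 7.94 and 3.81, 12.4 and 10.8, 82.0 and 61.6, and 54.7 and 35.2 CPM. *Jun*, at -0.15, and *Fosl2*, at -0.07, also had more CPM there in 4 of 4 sections. With library sizes alone the median log2 fold change of all genes was 0.30 in macrophage-rich spots, so more CPM there is not particular to these genes. *Egr1* there was at -0.47 (SE 0.18) and *Jund* at -0.45 (SE 0.17), with edgeR adjusted p of 0.213 and 0.216, while by CPM *Jund* was higher in rich spots in 3 of 4 sections and *Egr1* in 2. In smooth muscle the lowest adjusted p was that of *Junb*, 0.1605, at -0.42 (SE 0.13), with more CPM in rich spots in 1 of 4 sections. Estimates for duct and keratin markers ran from -0.21 to 0.25 and for islet markers from -0.39 to 0.18. By CPM, *Fos*, *Jun*, *Junb*, *Jund*, *Atf3* and *Egr1* were higher in spots rich in duct and keratin markers in 4 of 4 sections. *Myc* was higher there in 3 of 4 sections, and *Fosb*, *Fosl1* and *Fosl2* in 1. With library sizes alone the median log2 fold change of all genes was -0.07 in these spots. None of these differences was called. In spots rich in endothelial markers *Fosb* was at 0.29 (SE 0.27) and *Jund* at -0.42 (SE 0.20), with more CPM in rich spots in 4 and 1 of 4 sections. *Fos*, *Fosl2* and *Junb* also had more CPM there in 4 of 4 sections, and with library sizes alone the median of all genes was 0.22. In simulated counts with the spread seen for fibroblast-rich spots, a log2 change of 1 was called in 160 of 200 altered genes. Differences of that size or smaller can thus go uncalled. Only genes above a minimum expected count were altered, so this figure does not cover genes with few UMIs.

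**Figure D4:**
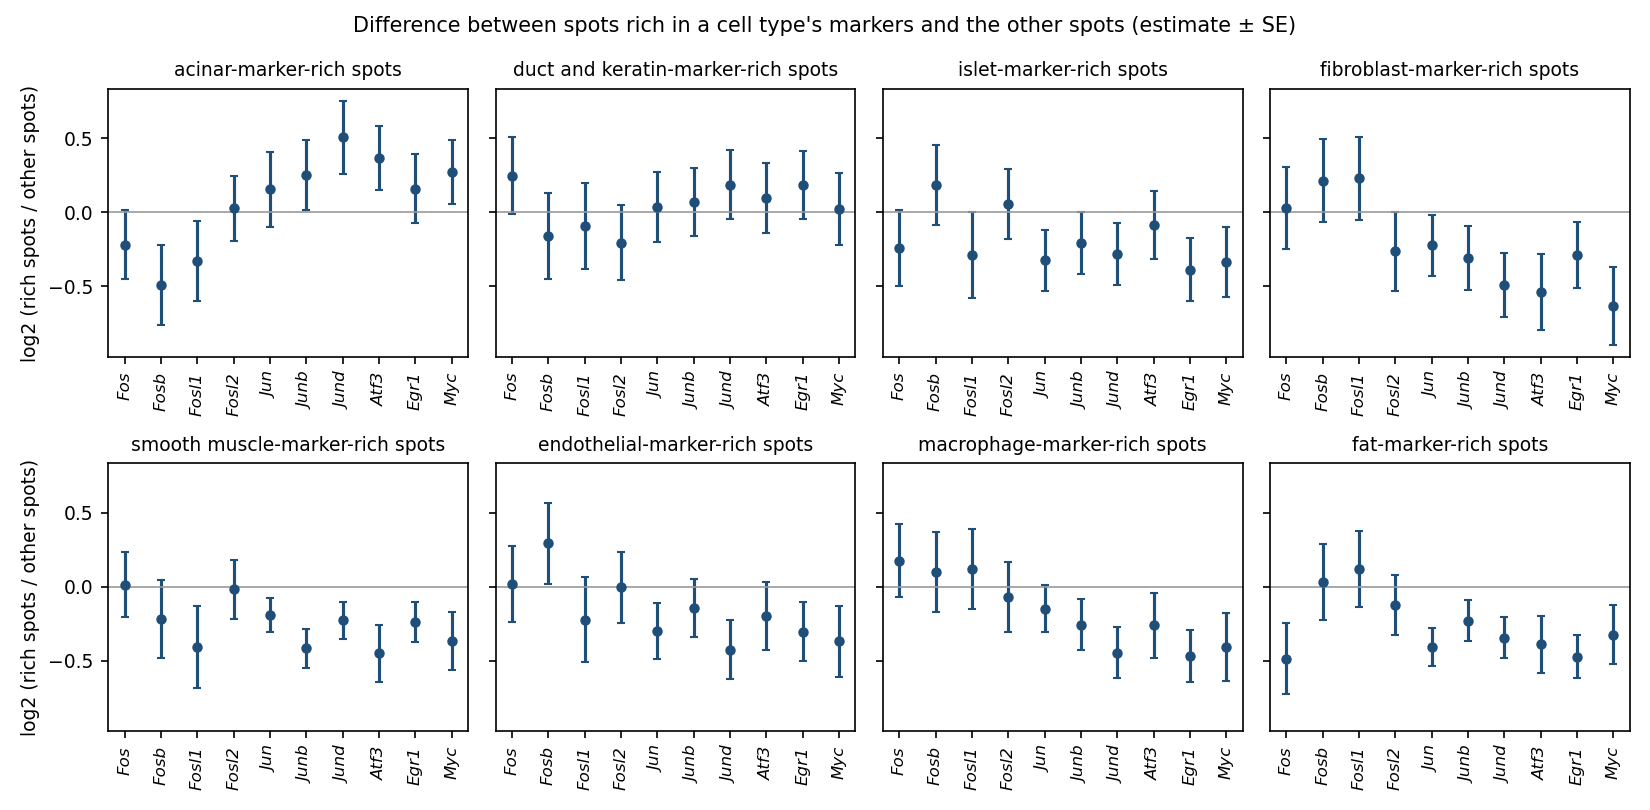
Log2 fold change between spots rich in the markers of a cell type and the other spots for each of the 10 genes, as the edgeR estimate with its SE and the section as a block, in 8 panels. The estimates lie between -0.63 and 0.51 and 0 of 80 were called.

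A test of whether the class difference itself differed between genotypes called 0 of the 10 genes in each of the 8 classes, with a lowest adjusted p of 0.506. Of all genes it called 0.0399% for acinar, 0% for duct and keratin, 0.0599% for islet, 0.0399% for fibroblast, 0.0648% for smooth muscle, 0.0499% for endothelial, 0.0449% for macrophage and 0.125% for fat markers. For duct and keratin markers, where 0 of all 20009 genes were called, 1394 had an unadjusted p under 0.05.

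Spot by spot *Jun*, *Junb*, *Jund* and *Egr1* showed little relation to each other, and pairs with the other genes were too rare to compare. Counts this sparse keep r low, so the values do not show that the genes are unrelated in cells. In thinned spots, 6 pairs of *Jun*, *Junb*, *Jund* and *Egr1* were frequent enough to compare the spots with both genes with the product of the shares. The ratio ran from 0.4503 to 1.43 over 24 values, with a median of 0.981. *Jun* and *Junb* were together in 15, 32, 163 and 124 spots, against 10.5, 29.1, 170 and 133 from the product. Across all spots Pearson's r between members, on ln(1 + UMIs per 10000), averaged 0.0081 for *Jun* and *Jund* to 0.029 for *Junb* and *Egr1* over the 4 sections. These are descriptions of sparse counts that share depth and carry no test.

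Among 3577 genes found in at least 2% of spots of every section, the genes most like *Jund* were *Try5*, *Cpa1* and *Prss2*, digestive enzymes, with a mean r of 0.067, 0.063 and 0.062. Those most like *Jun* were *Epcam*, an epithelial adhesion gene (0.053), *Pfn1* (0.050) and *Tpm3* (0.047), genes of the actin cytoskeleton. *Egr1* had *Epcam* (0.047), *Clu* (0.043), and *Cldn3*, a tight junction gene (0.043), and *Junb* had *Actg1* (0.041), *Tpm3* (0.040) and *Nadk* (0.039). All are weak values in sparse counts, and for *Clu* the r turned sign, to -0.01, in Ehmt2+/+ replicate 2. For *Jund* the r with *Try5*, *Cpa1* and *Prss2* was highest in the deeper Ehmt2+/+ replicate 1, at 0.108, 0.127 and 0.115. In Ehmt2+/+ replicate 2 it was 0.049, 0.012 and 0.017, and the Ehmt2 fl/fl sections lay between 0.024 and 0.087. The other 6 genes were in too few spots to be ranked.

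The surrounding pathway was described by 6 lists with 100 tested genes. EdgeR called 0 of the 100 between genotypes, with 4 at an unadjusted p under 0.05, against the 5.28% of all genes given above. DESeq2 called 4 of the 27 to which it gave an adjusted p, against 26.4% of all such genes. The CPM of 98 of them were higher in both Ehmt2 fl/fl sections, against 91.8% of all genes, and per 1000000 non-enzyme UMIs those of 75 were, against 49.6%. Relative to the median gene, the median of the list was 0.49 for known AP-1 targets, 0.31 for other zipper partners and 0.22 for MAP kinase feedback inhibitors. It was -0.02 for other immediate early genes, -0.95 for MYC partners and targets and -1.04 for MAP kinase and serum response factor inputs, while it was -0.21 for the 10 genes themselves. As plain log2 fold changes, known AP-1 targets were at 0.74, other zipper partners at 0.56 and MAP kinase feedback inhibitors at 0.46. These lay below the olfactory receptor median of 0.81, and the part of that background in the lists was not tested.

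Upstream, *Mapk3*, the ERK1 gene, had 52.7, 48.7, 68.2 and 60.2 CPM and a log2 fold change of -1.78 (SE 0.98), and *Map2k6*, a p38 kinase activator, was at 0.72 (SE 0.95). Of the feedback inhibitors, *Dusp6*, an ERK phosphatase, had 19.6, 36.5, 198 and 205 CPM and was at 0.999 (SE 0.97), and *Spry2* was at -0.46 (SE 0.68). *Ccn1*, an immediate early matrix protein gene, had 3.72, 15.7, 84.4 and 80.1 CPM and was at 1.57 (SE 0.83). *Btg2*, an antiproliferative immediate early gene, had 136, 191, 300 and 298 CPM and was at -1.09 (SE 1.10). None of these passed the edgeR test, with adjusted p of 0.863. These values and those in the next paragraph are log2 fold changes not taken relative to the median gene, which was at 0.25. Genes were named only where CPM did not overlap, and 0 of the listed genes had less CPM in both Ehmt2 fl/fl sections. A named gene with a negative value thus had more CPM in both of them. *Hras*, whose CPM overlapped, was passed over by this rule and was at -2.49 (SE 1.05, edgeR adjusted p = 0.785).

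Among the zipper partners, *Maf* had 19.1, 54.4, 352 and 342 CPM and was at 1.57 (SE 1.03), and *Atf4*, of the integrated stress response, was at -1.57 (SE 1.16). *Mmp9*, a matrix metalloproteinase gene and known AP-1 target, had 1.53, 13.5, 65.9 and 84.7 CPM and the lowest p of the named pathway genes, with a log2 fold change of 2.02 (SE 0.80, edgeR adjusted p = 0.691). *Plau*, the urokinase gene, was at -0.60 (SE 0.69). Of the MYC list, *Mxd1* was at 0.20 (SE 0.93) and *Npm1*, a nucleolar gene, at -1.54 (SE 1.13). The 10 macrophage markers together had 86.2 and 156 CPM in Ehmt2+/+ and 1024 and 829 CPM in Ehmt2 fl/fl, none of them at 0, and the 6 neutrophil markers had 3.49 and 38.9 CPM against 132 and 131 CPM. The part of these cells in the values of *Maf*, *Mmp9* or the 10 genes was not tested.

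In the classes of spots, edgeR called 9 differences in these lists, with 100 or 101 list genes tested per class. It called 4 lower for fat markers, 2 lower and 1 higher for macrophage, and 1 lower each for fibroblast and smooth muscle markers. Of all genes it called 1.46%, 1.22%, 0.754% and 0.608% in these classes. For the other classes it called 0 list genes. *Btg2* fell in spots rich in fibroblast (-0.78, adjusted p = 0.0388), macrophage (-0.58, adjusted p = 0.0385), fat (-0.54, adjusted p = 0.0081) and smooth muscle markers (-0.53, adjusted p = 0.0023). In fibroblast-rich spots *Btg2* had 142, 188, 248 and 197 CPM, against 135, 191, 305 and 308 CPM in the others, which puts the lower values in 3 of 4 sections. *Maf* rose in macrophage-rich spots by 0.72 (adjusted p = 0.0045), with 44.1, 94.4, 744 and 687 CPM against 17.8, 50.8, 316 and 312 CPM, higher in 4 of 4 sections. *Ncl*, a nucleolar gene of the MYC list, fell there by 0.64 (adjusted p = 0.0348). In fat-rich spots *Map2k3*, a p38 activator, fell by 0.71, *Ier3*, an immediate early survival gene, by 0.59 and *Atf4* by 0.44, with edgeR adjusted p of 0.0221, 0.0136 and 0.0496. These directions are relative to TMM scaling. *Ier3* and *Btg2* had more CPM in fat-rich spots than in the others in both Ehmt2+/+ sections and less in both Ehmt2 fl/fl sections, and the same held for *Btg2* in macrophage-rich spots. In the Ehmt2+/+ sections the gaps for fat markers were small. *Ier3* had 27.7 and 55.6 CPM against 25.95 and 53.7, and *Btg2* had 144 and 193 CPM against 135 and 191. No test of the class difference by genotype is given here for these genes. *Ncl* in macrophage-rich and *Atf4* and *Map2k3* in fat-rich spots had less CPM in 3 of 4 sections, as *Btg2* did in smooth muscle-rich spots. With spots thinned to 500 UMIs before ranking, edgeR called 0 of all genes lower in fat-rich spots, against 234 without thinning. The falls of *Btg2*, *Map2k3*, *Ier3* and *Atf4* there were thus not called. It called 1 gene lower for smooth muscle, 2 for macrophage and 86 for fibroblast markers, against 97, 201 and 102.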

How the data were processed

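The authors deposited raw UMI counts (integers for each feature in each spot), made with the CytAssist Visium workflow, the mouse Visium probe set and Space Ranger 2.0.1 on the mm10 reference. They are not normalized and include off-tissue spots. The tissue marks carry no barcodes and were not joined. The 304 deprecated probe features were left out. The 4 sections list 13898 barcodes in common, since barcodes are array positions. Counts were summed over spots with at least 500 UMIs. The quasi-likelihood test of edgeR 4.0.16 (R 4.3.3) was used with TMM scaling, filterByExpr at a minimum count of 10 and Benjamini-Hochberg adjustment at 0.05, by genotype or, for marker-rich spots, with section as block. Exact permutation tests were two-sided. The alternatives were DESeq2 1.42.0, other scalings, filters, spot limits, thinning and each section left out. All 10 members were named. Of each pathway list, called genes and those with the largest rise and fall in log2 fold change among genes without overlap in CPM were named. The members and lists were chosen with earlier results of these data known. Python 3.11.15 with scipy 1.17.1 was used otherwise. On data simulated with the dispersion of the genotype comparison, 0.351, a log2 change of 2 was called in 0 of 200 altered genes and a change of 3 in 13 of 199. With 2 sections per genotype, p-values measure the spread between these sections only.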

Additional observations from a re-analysis of the deposited data

How the results depend on the processing

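Over the alternatives, 126 of 150 values of the 10 genes relative to the median gene kept their sign and their side of the threshold, 7 passed the threshold in the same direction and 17 turned, 2 of them as calls against the sign of the main value. Those were *Junb*, at -0.022, and *Egr1*, at -0.22, which stayed below the median gene without TMM factors but were called higher, since the test is against 0. Without TMM factors *Jun* was at 0.11 and *Atf3* at 0.39. With upper-quartile factors *Atf3* was at 0.22 and with spots thinned to 500 UMIs at 0.37. With TMM factors from genes with a mean CPM of at least 50, chosen after seeing the data, *Jun* was at 0.036 and *Atf3* at 0.31, and with the olfactory receptor genes equalized, also chosen then, *Fosl2* was at -0.15. With each section left out, *Jun* ran from -1.14 to 0.50, *Junb* from -1.41 to 0.45, *Atf3* from -0.93 to 0.78, *Egr1* from -1.89 to 0.47 and *Fosl2* from -0.36 to 0.97. Without Ehmt2+/+ replicate 1 *Jun* was at 0.50, *Junb* at 0.45, *Atf3* at 0.78 and *Egr1* at 0.47. Without Ehmt2+/+ replicate 2 *Fosl2* was at -0.36, without Ehmt2 fl/fl replicate 1 it was at -0.0038, and without Ehmt2 fl/fl replicate 2 *Jun* was at 0.0050 and *Atf3* at 0.077. The cause of these turns was not tested. The count of the 10 genes called between genotypes was 4 without TMM factors and ran from 0 to 6 with a section left out, 1 without Ehmt2+/+ replicate 1 and 6 without Ehmt2+/+ replicate 2, against 1.99%, 1.89% and 82.8% of all genes, and was 0 under the other alternatives, where DESeq2 could call 4 of the 10. The 22 genes called of all became 470 with DESeq2, 400 without TMM factors, 3 with upper-quartile factors, 44 with thinned spots, 207 with TMM factors from abundant genes and 477 with the olfactory receptor genes equalized, and with a section left out the count ran from 0 to 16653. It was 379 without Ehmt2+/+ replicate 1, 16653 without Ehmt2+/+ replicate 2, 2 without Ehmt2 fl/fl replicate 1 and 0 without Ehmt2 fl/fl replicate 2. The count of the 10 genes higher in both Ehmt2 fl/fl sections was 2 with CPM scaled with TMM factors, against 20.4% of all tested genes. The log2 difference in the ratio of *Jun* to *Jund* ran from 0.64 without Ehmt2+/+ replicate 1 to 1.51 without Ehmt2+/+ replicate 2.

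For marker-rich spots, the count of the 10 genes called was 1 with DESeq2 and 7 without TMM factors for acinar markers, against 34.0% and 72.0% of all genes, and ran from 0 to 5 with a section left out, with 10.2% of all genes at the count of 5. With a section left out it ran from 0 to 1 for duct and keratin markers (*Jund*, without Ehmt2+/+ replicate 1, against 0.261%) and from 0 to 1 for fat markers (*Jun*, without Ehmt2+/+ replicate 1, against 1.44%). With the top 20% of spots it was 1 for fibroblast (*Jund*), 2 for macrophage (*Jund* and *Egr1*) and 2 for fat markers (*Jun* and *Egr1*), against 2.20%, 3.16% and 2.49% of all genes. It was 1 for fat markers with DESeq2 and 1 for macrophage markers without TMM factors (*Fos*), against 21.2% and 8.65%. Without TMM factors *Jund* turned to -0.11 in acinar-rich, 0.069 in fibroblast-rich and 0.015 in macrophage-rich spots, *Jun* to 0.091 in endothelial-rich and *Egr1* to 0.0088 in macrophage-rich spots. With spots thinned before ranking, *Fosb* in acinar-rich spots was at 0.13. Of 30 differences in spot shares under other thinning 4 turned sign, with *Jund* at -10.4, *Egr1* at -1.74 and *Myc* at -1.72 percentage points without thinning and *Jund* at -0.42 with 500 non-enzyme UMIs.

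No paired analysis was possible because the labels give no replicate numbers, and those used here only name the sections in accession order. The genotype comparison rests on 2 sections per group that also differ in enzyme share and Y-linked counts, and these cannot be told apart from genotype.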
